A study of Mus musculus with 23 samples.

Results

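The comparison set clonal mouse preadipocyte lines labelled Type 2 against those labelled Type 3, to show which genes separate these types of fat-cell precursor. The members were 13 of the 23 lines of the series, chosen by the type label alone: 5 Type 2 lines and 8 Type 3 lines, with the 3 Type 1 lines and 7 lines labelled Other left out. Preadipocytes are the committed precursors that fill with lipid and become adipocytes once differentiation is induced. Every line was grown from a single cell of the stromovascular fraction, the non-adipocyte part of fat, of 1 male Immortomouse aged 8 weeks. An Immortomouse carries a temperature-sensitive viral large T antigen under an interferon-inducible promoter, so its cells divide without limit at a permissive temperature with interferon-gamma. Both types shared the transgene, growth at 33 °C with interferon-gamma at 10 units per mL, and the animal, and no line received a further treatment in the labels. By the start of the clone name, Type 2 lines 1 to 4 and Type 3 lines 1 to 4 were SCF (taken as subcutaneous fat). Type 2 line 5 and Type 3 lines 5 to 8 were PGF (taken as perigonadal fat). The number after that prefix, of unstated meaning, was spread unevenly. In Type 2, 1 SCF line had number 1, and 3 SCF lines and the PGF line had number 3. In Type 3, 3 SCF lines had number 1 and 1 had number 3. Of the Type 3 PGF lines, 2 had number 2 and 2 had number 3. So type and this number are partly confounded. The submitters formed the types by clustering expression of these lines, so p-values here order genes and are not independent evidence that the types exist. As all lines came from 1 animal, they measure only the spread between clones.

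Stromal precursors of fat lie on a range between a contractile, myofibroblast-like state, with stress fibres of smooth muscle actin anchored at focal adhesions, and a quieter fibroblast state that secretes matrix and signalling proteins. Tension in the actin network releases the cofactors MRTF and YAP/TAZ into the nucleus, where MRTF works with SRF at CArG boxes of contractile genes and YAP/TAZ work with TEAD factors at genes such as Ccn1 and Ccn2. Wnt ligands and their receptors, IGF-binding proteins and interferon-induced genes are other systems known to vary between adipose precursors.

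Each value is a log2 signal from 1 array per line, and a difference is the Type 2 mean minus the Type 3 mean on that scale, so 1 unit is a 2-fold change. The 13 arrays had pairwise correlations of 0.971 to 0.992 across probe sets. Array medians of all 23 lines lay between 5.09 and 5.16. The actin 3' minus 5' probe difference, a sign of RNA integrity, ran from 0.65 to 1.00 (median 0.66) in Type 2 and from 0.68 to 0.98 (median 0.86) in Type 3, and its part in the results was not tested. On the list of preadipocyte and stromal markers, 0 of 13 genes were below the table median of 5.13 in all 13 lines, and the log2 of the summed list was 13.16 to 14.01 in Type 2 and 13.70 to 15.20 in Type 3. Pdgfra, a stromal precursor receptor, stood between 10.12 and 12.50, whereas Cd34 ran from 3.49 to 10.85 and Lum from 3.44 to 5.93. Markers of other cells lay below the median in all 13 lines for 8 of 17 leukocyte genes (Ptprc, Adgre1 and Itgam among them), 7 of 12 endothelial, 9 of 15 mesothelial, 9 of 13 skeletal muscle, 6 of 11 epithelial, 5 of 10 pericyte and 4 of 8 mature adipocyte genes. Those above it included Csf1r (up to 11.30) and Cd53 (up to 10.49) of leukocytes, Tek of endothelium (up to 9.48), and Car3 (up to 9.49) and Adipoq (up to 6.48) of adipocytes.

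Of 11944 genes tested, 590 (4.94%) passed an adjusted p of 0.05 in limma, 297 higher in Type 2 (2.49%) and 293 higher in Type 3 (2.45%). The median difference over all tested genes was -0.01, and the calls were close to even in number in both directions. Most were small: the median absolute difference of the 590 was 0.50, and a gap of at least 1 log2 unit was reached by 31 genes on the Type 2 side and 69 on the Type 3 side. Without any model, all 5 Type 2 values lay above all 8 Type 3 values in 226 genes (1.89%) and below them in 176 (1.47%), of which 177 and 142 were also called. With Type 2 line 5 left out, and so fewer lines to clear, 675 genes in both directions had no overlap. Every line of the lower group was below the table median in 14 of the 590, of which 5 stood on the Type 2 side and 9 on the Type 3 side. They passed the filter on low values only through the higher group, so they had to differ. The number of calls leaned on single lines. It fell to 152 without Type 2 line 1 and to 216 without Type 2 line 3, and stood at 328 without line 2, 356 without line 4, 316 without Type 3 line 5 and 304 without Type 3 line 8. A core of 122 genes, 65 on the Type 2 side and 57 on the Type 3 side, passed in all 13 refits that left out 1 line. With all 23 lines in the fit 53 genes passed.

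**Figure D1:**
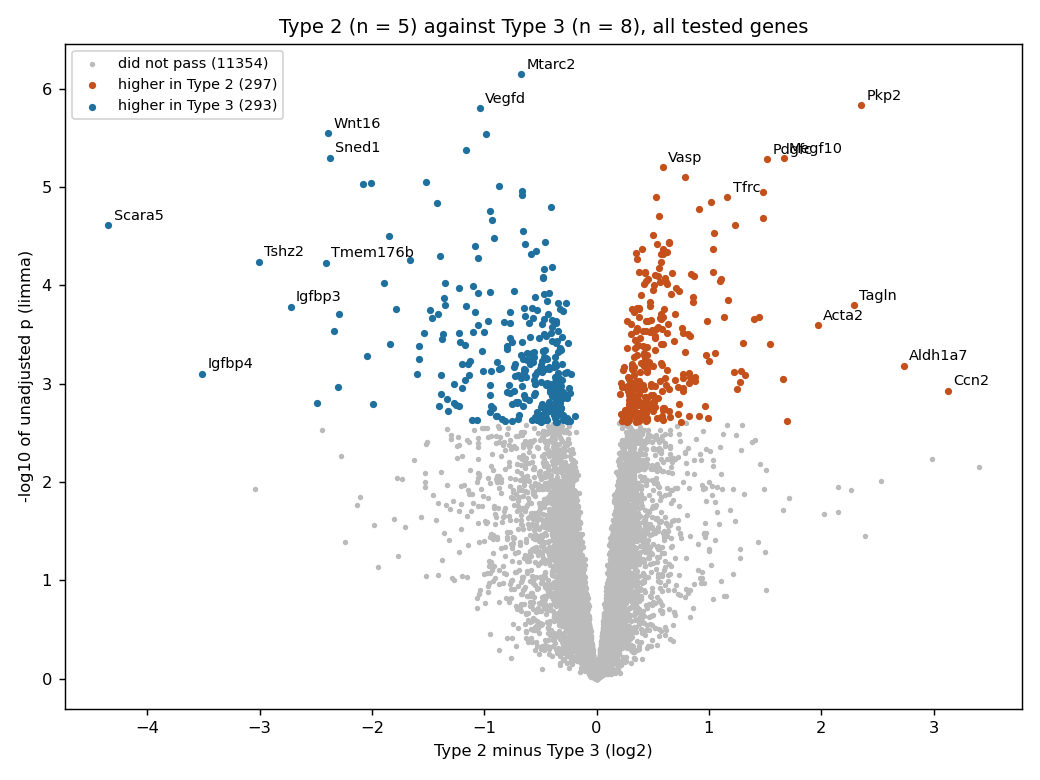
Each point is 1 of 11944 tested genes, with the Type 2 minus Type 3 difference (log2) across and -log10 of the unadjusted limma p upwards; coloured points passed the adjusted threshold. The widest differences are on the Type 3 side, led by Scara5 at -4.35, and Ccn2 at 3.13 is the widest that passed on the Type 2 side.

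Of 15 tested contractile genes of smooth muscle, 7 passed as higher in Type 2 (46.7%, against 2.49% of all genes) and 0 as higher in Type 3, with a median difference of 0.57. Tagln, the actin-binding protein transgelin that the study uses as its Type 2 marker, was chosen on these lines and is no independent support. In Type 2 lines 1 to 5 Tagln read 10.76, 10.95, 9.24, 11.33 and 10.35, and in Type 3 it ran from 6.90 through a median of 8.45 to 9.30. Only Type 2 line 3 fell within the Type 3 range. The means were 10.53 ± 0.80 (SD, n = 5) and 8.23 ± 0.89 (SD, n = 8), a 4.90-fold difference (2.29, SE 0.44, limma adjusted p = 0.0178).

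Acta2, smooth muscle actin itself, read 12.82, 12.82, 12.50, 13.24 and 12.50 in the Type 2 lines, against 9.36 to 11.89 in Type 3 with a median of 10.91. The groups did not overlap. As each array averages a whole culture, fewer cells with a transcript and less of it per cell cannot be told apart. The difference was 1.97 (SE 0.40, 3.92-fold, adjusted p = 0.0193). Myl9, a regulatory light chain of myosin, gave 10.33, 9.98, 9.91, 10.57 and 10.35 in Type 2 and 7.73 to 9.70 (median 8.93) in Type 3, again without overlap (1.45, SE 0.29, adjusted p = 0.0186). Actn1, the crosslinker alpha-actinin, differed by 0.78 (adjusted p = 0.00759) and the tropomyosins Tpm1 and Tpm2 by 0.57 (adjusted p = 0.0187) and 0.60 (adjusted p = 0.0431). Smtn, smoothelin, completed the 7 at 0.43 (adjusted p = 0.0269). The other 8 did not pass, among them Cnn1 (0.45, adjusted p = 0.725), Actg2 (0.61, adjusted p = 0.622), Synpo2 (0.55, adjusted p = 0.287), desmin (Des; adjusted p = 0.99) and, with the opposite sign, the myosin light chain kinase Mylk (-1.80, adjusted p = 0.147). Averaged over the tested members, each centred on its mean, the list stood at 0.17 to 0.81 in Type 2 and -0.89 to 0.37 in Type 3, where line 7 at 0.37 was the only Type 3 line above 0. The list had 0 calls with all 23 lines in the fit (Tagln adjusted p = 0.121, Acta2 0.131), 2 without Type 2 line 1, and 4 with the number in the clone name (1, 2 or 3, of unstated meaning) as a block. The calls of Acta2, Myl9 and Tpm1 were lost without Type 2 line 1 by a narrow margin (adjusted p up to 0.0520), and Smtn and Tpm2 passed in 9 and 4 of the 13 refits.

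**Figure D2:**
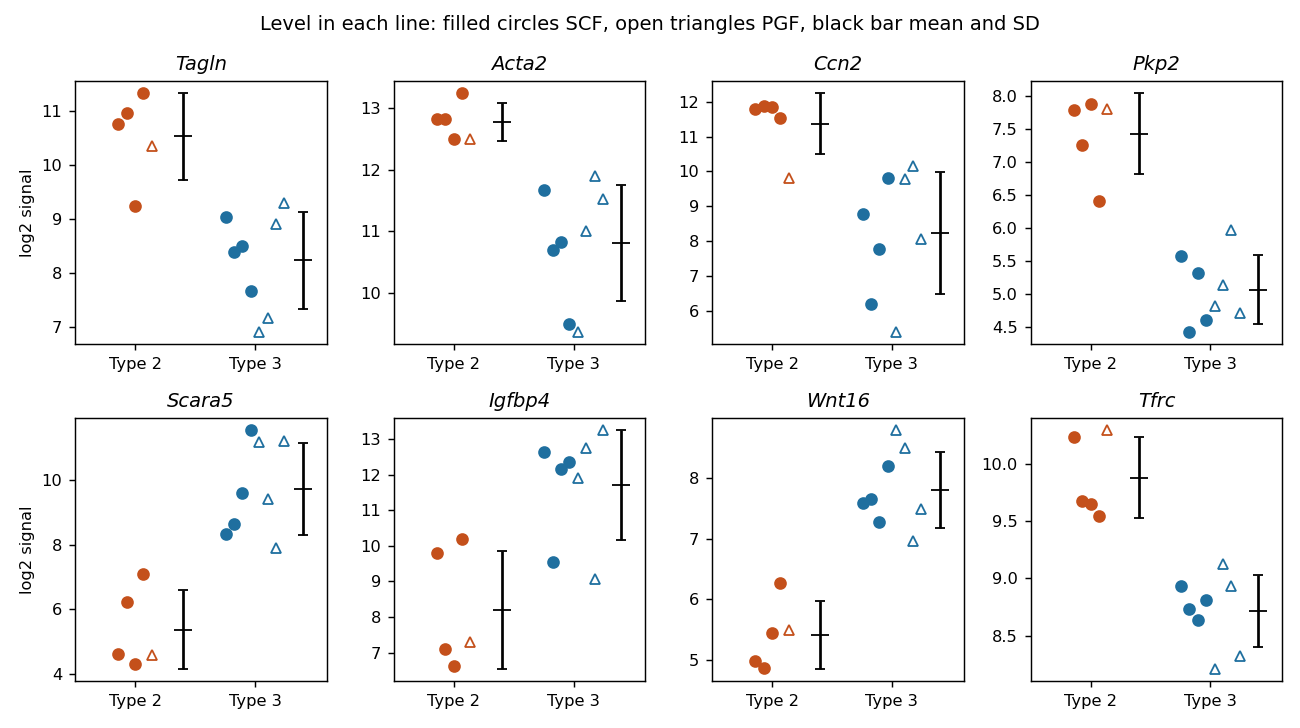
Log2 signal of 8 genes in every line, Type 2 in orange and Type 3 in blue, with filled circles for SCF lines, open triangles for PGF lines, and a black bar for the mean and SD. Acta2, Pkp2 and Tfrc are higher in every Type 2 line than in any Type 3 line, Scara5 and Wnt16 are lower in every one, and Tagln, Ccn2 and Igfbp4 overlap.

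Of 20 tested actin cytoskeleton and focal adhesion genes, 5 passed as higher in Type 2 (25% against 2.49%) and 0 as lower, and 19 had a positive difference, with a median of 0.38. Flna, the filamin that crosslinks actin to integrins, read 10.23, 10.04, 9.81, 10.05 and 9.74 in Type 2 and 8.59 to 9.64 (median 9.27) in Type 3. Every Type 2 line was higher (0.76, SE 0.16, adjusted p = 0.0201). Raph1, a protein of the leading edge, differed by 0.77 (adjusted p = 0.0304), Ajuba, a LIM protein of junctions, by 0.69 (adjusted p = 0.0223), Pdlim7 by 0.63 (adjusted p = 0.0206) and the integrin subunit Itgb1 by 0.47 (adjusted p = 0.0173). Vasp, which extends actin filaments and is in none of the lists, had one of the smallest p-values: Type 2 lines read 10.17, 9.97, 10.01, 10.14 and 9.96 and Type 3 lines 9.29 to 9.75 (median 9.45), a difference of 0.59 (SE 0.08, adjusted p = 0.00748). Vasp passed in all 13 refits, whereas the list of 20 had 1 call without Type 2 line 1, 2 without line 3, 2 with all 23 lines and 3 with the clone-name number as a block.

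Of 20 YAP and TAZ target genes, 5 passed as higher in Type 2 (25% against 2.49%) and 1, Igfbp3, as higher in Type 3 (5% against 2.45%), with a median of 0.26. Ccn2, a secreted matricellular protein, had the largest difference of any gene that passed on the Type 2 side. It read 11.79, 11.87, 11.85, 11.52 and 9.82 in Type 2, and from 5.40 to 10.14 (median 8.42) in Type 3. The 4 SCF lines of Type 2 stood above every Type 3 line, and the PGF line of Type 2 fell inside the Type 3 range. The means were 11.37 ± 0.88 (SD, n = 5) and 8.24 ± 1.74 (SD, n = 8), an 8.73-fold difference (3.13, SE 0.76, adjusted p = 0.0357). Its relative Ccn1 did not overlap: 11.91, 11.80, 11.76, 11.61 and 11.56 in Type 2 against 9.65 to 11.14 (median 10.67) in Type 3 (1.17, SE 0.22, adjusted p = 0.0169), with all 4 tested probe sets passing. Ankrd1, a sarcomere and nuclear ankyrin protein, read 5.70, 6.97, 7.89, 8.21 and 7.82 in Type 2 and 4.65 to 6.71 (median 5.48) in Type 3, and Type 2 line 1 lay inside the Type 3 range (1.70, SE 0.46, adjusted p = 0.0495). Crim1, a membrane protein that binds growth factors, differed by 1.06 (adjusted p = 0.0253). The call of Ccn2 was lost without Type 2 line 1, 2, 3 or 4 or Type 3 line 2, 3 or 8 (adjusted p up to 0.0949), and Ankrd1 passed in only 3 of the 13 refits. When all probe sets were tested together, 0 of 2 for Ankrd1 passed (1.70 and 2.23), and 1 of 2 for Crim1 (1.06 and 1.10). The 5 calls of the list became 3 without Type 2 line 1, 4 or 5 or Type 3 line 2 or 8, 2 without Type 2 line 2, 1 without Type 2 line 3, 3 with depot as a covariate, 1 with all 23 lines, and 0 with the clone-name number as a block.

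Promoter sequence is shown for Myl9, Acta2 and Ankrd1, of the contractile and YAP/TAZ lists, and for Srf, which is on neither. Genes of these lists are known targets of factors that bind CArG boxes and the TEAD motif. The windows shown all hold a match, so they are examples and do not represent the lists. Tagln and Ccn2 were not among the RefSeq promoters used. Sequences are from RefSeq (GRCm38.p6), from 250 bases before to 50 after the start site, 5′ to 3′ on the gene's strand, and the window held a CArG box on either strand in 1.63% of 32851 promoters and GGAATG (or its reverse complement) in 14.7%. Among 55 promoters of the tested smooth muscle, actin and YAP/TAZ list genes, called or not, the shares were 10.9% and 34.5%. Among 304 promoters of genes called higher in Type 2 they were 2.3% and 14.1%. For 310 promoters of genes called higher in Type 3 they were 0.645% and 13.2%, and for 12356 promoters of all tested genes 1.28% and 12.2%. The shares were not tested. Capitals mark the CArG box in Myl9 (chr2:156775214-156775513, + strand) and Srf (chr17:46556113-46556412, - strand), and GGAATG in Acta2 (chr19:34255324-34255623, - strand) and Ankrd1 (chr19:36119795-36120094, - strand). A match is a description of the letters and not a measured binding site. Only exact matches are marked. The Acta2 window also holds unmarked letters close to a CArG box (ccctatatgg), so a missing mark does not show that such an element is absent.
Myl9: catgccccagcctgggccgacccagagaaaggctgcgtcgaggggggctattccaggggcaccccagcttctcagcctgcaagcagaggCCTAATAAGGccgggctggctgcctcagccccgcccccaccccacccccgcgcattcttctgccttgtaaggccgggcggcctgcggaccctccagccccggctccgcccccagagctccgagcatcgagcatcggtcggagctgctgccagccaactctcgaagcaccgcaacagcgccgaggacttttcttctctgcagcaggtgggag
Srf: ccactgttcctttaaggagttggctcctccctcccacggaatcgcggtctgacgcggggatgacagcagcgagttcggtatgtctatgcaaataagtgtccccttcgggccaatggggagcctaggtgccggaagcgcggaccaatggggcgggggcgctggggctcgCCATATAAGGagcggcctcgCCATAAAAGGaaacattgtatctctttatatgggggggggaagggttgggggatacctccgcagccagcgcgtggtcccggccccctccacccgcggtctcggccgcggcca
Acta2: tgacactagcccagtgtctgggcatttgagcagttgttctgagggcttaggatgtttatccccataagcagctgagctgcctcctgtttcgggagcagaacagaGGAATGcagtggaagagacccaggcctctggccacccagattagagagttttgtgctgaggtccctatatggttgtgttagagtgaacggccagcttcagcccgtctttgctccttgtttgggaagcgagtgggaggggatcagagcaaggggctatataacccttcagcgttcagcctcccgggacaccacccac
Ankrd1: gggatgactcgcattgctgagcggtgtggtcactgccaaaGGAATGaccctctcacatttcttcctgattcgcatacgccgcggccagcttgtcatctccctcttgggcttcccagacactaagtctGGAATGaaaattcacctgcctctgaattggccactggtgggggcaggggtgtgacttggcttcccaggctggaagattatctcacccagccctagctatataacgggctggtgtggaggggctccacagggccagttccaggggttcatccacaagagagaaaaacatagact
Srf, the factor that binds CArG boxes and whose own window holds 2 of them, was itself higher in Type 2: 7.82, 7.97, 7.63, 7.50 and 7.21 against 6.80 to 7.34 (median 7.04) in Type 3, with only Type 2 line 5 inside the Type 3 range (0.58, SE 0.13, adjusted p = 0.0285). That call was lost without Type 2 line 1, 2 or 3 or Type 3 line 8 (adjusted p up to 0.0826). Of 2 tested Srf probe sets 1 passed, and the other differed by 0.21.

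Of the 12 widest differences that passed on the Type 2 side, 8 had no overlap between the groups and 6 passed in all 13 refits. Pkp2, plakophilin, which anchors filaments at desmosomes, had the smallest p among them. It read 7.78, 7.26, 7.87, 6.42 and 7.81 in Type 2 and 4.42 to 5.97 (median 4.98) in Type 3, where 4 of 8 lines were below the table median. The difference was 2.36 (SE 0.29, 5.12-fold, adjusted p = 0.00628), and it also passed with all 23 lines in the fit (adjusted p = 0.0112). The desmosome genes Pkp1, Dsp, Jup, Dsg2, Dsc2 and Dsc3 were too low to be tested. Pkp3 and Pkp4 differed by -0.13 and 0.67 and did not pass (adjusted p = 0.656 and 0.0864). Pdgfc, a ligand of the PDGF alpha receptor, gave 10.32, 9.37, 9.45, 9.82 and 10.08 against 7.82 to 9.01 (median 8.21), with no overlap (1.52, SE 0.21, adjusted p = 0.00696). Inhba, the activin A subunit, gave 11.10, 10.81, 11.86, 11.39 and 10.99 against 8.77 to 10.60 (median 9.81), also with no overlap (1.54, SE 0.33, adjusted p = 0.0231).

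Bdnf, a neurotrophin, differed by 1.48 (adjusted p = 0.00918), as did Tm4sf1, a tetraspanin-like surface protein (1.48, adjusted p = 0.00759). Megf10, an engulfment receptor, read 7.93, 7.17, 8.45, 7.74 and 7.05 in Type 2 and 5.66 to 6.61 (median 5.90) in Type 3 (1.66, SE 0.23, adjusted p = 0.00696). All 3 had no overlap. Aldh1a7, an aldehyde dehydrogenase of the retinaldehyde dehydrogenase family, was 6.65-fold higher, with Type 2 values of 10.28, 8.94, 10.00, 8.11 and 7.67 and a Type 3 range of 4.65 to 8.23 (median 6.58) that took in 2 of them (2.73, SE 0.62, adjusted p = 0.0289). Aldh1a7 was the only 1 of 14 tested retinoid genes that passed (7.14% against 2.49% of all genes). Its close relative Aldh1a1 differed by 1.22 (adjusted p = 0.29). Pkia, an inhibitor of protein kinase A, differed by 1.66 (adjusted p = 0.0322), with Type 2 line 1 well above the rest at 9.12. The calls of Aldh1a7, Inhba and Pkia were lost without Type 2 line 1 or line 3, with adjusted p up to 0.0842, 0.0620 and 0.0888 respectively; that of Aldh1a7 was also lost without Type 2 line 2 and that of Pkia without Type 2 line 4 or Type 3 line 8.

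**Figure D3:**
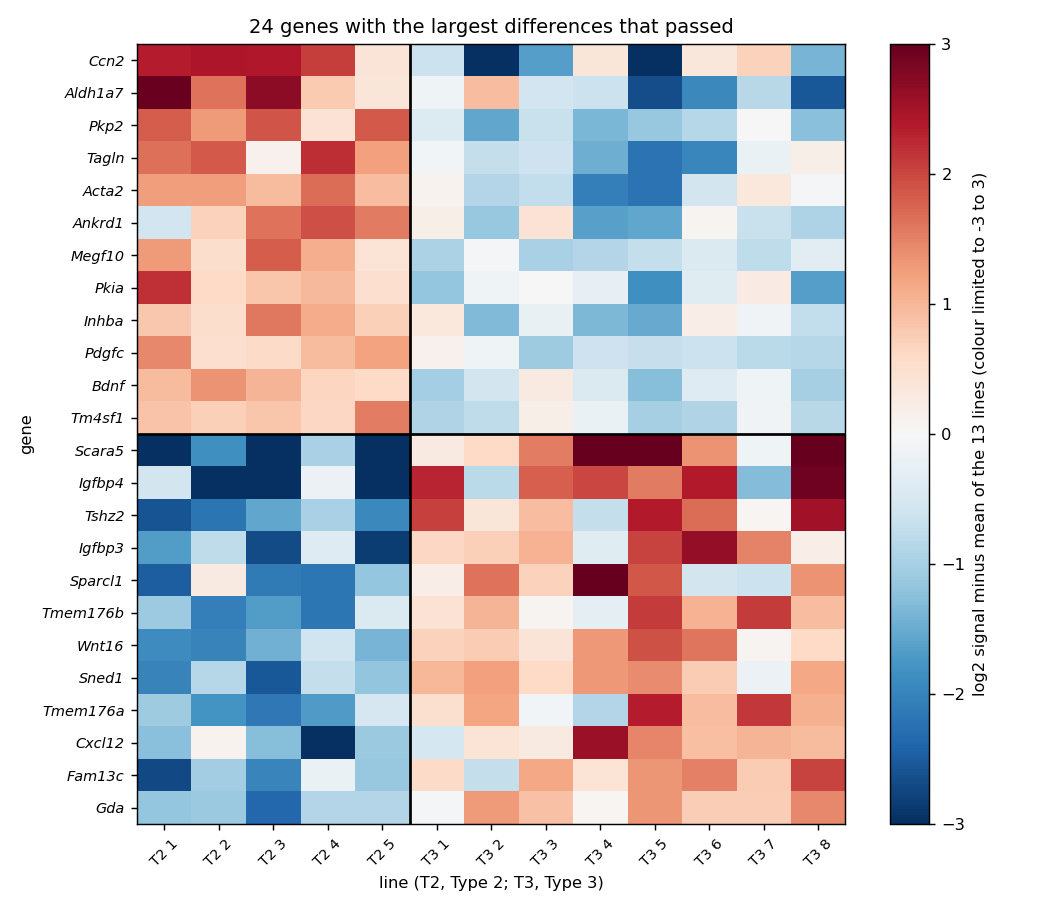
Colour shows log2 signal minus the gene's mean over the 13 lines, limited to -3 to 3, for the 12 widest differences that passed in each direction (rows) in each line (columns). Rows divide at the black lines into red for Type 2 and blue for Type 3 above, and the reverse below. Single cells depart, such as Tagln in Type 3 line 8 at 9.30 and Igfbp4 in Type 3 line 7.

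A family of ribosome assembly genes was put together from gene symbols after the values were seen, so its share is no independent support. Of 86 tested nucleolar ribosome biogenesis genes, 33 passed as higher in Type 2 (38.4% against 2.49%) and 0 as higher in Type 3, 80 had a positive difference, and 24 had no overlap between the groups. The median was 0.31. Nop16, an assembly factor of the large subunit, read 8.56, 8.47, 8.20, 8.30 and 8.11 in Type 2 and 7.38 to 7.95 (median 7.70) in Type 3 (0.64, SE 0.11, adjusted p = 0.0115). Gnl3, the nucleolar GTPase nucleostemin, differed by 0.63 (adjusted p = 0.0115), and Dkc1 and Nop56, proteins of the particles that modify ribosomal RNA, by 0.62 (adjusted p = 0.0142) and 0.56 (adjusted p = 0.0134). Each of these 4 had no overlap and passed in all 13 refits. The mean of the centred family was 0.09 to 0.34 in the Type 2 lines and -0.32 to 0.03 in the Type 3 lines, so the groups were separate on this scale. Without Type 2 line 1 the count was 12, without Type 2 line 2 16, without Type 2 line 3 21, without Type 2 line 4 22, without Type 3 line 2 21, without Type 3 line 5 20 and without Type 3 line 8 22, always with 0 in the other direction; with all 23 lines in the fit it was 2.

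The finished ribosome did not share that count. Of 43 cytosolic ribosomal protein genes 1 passed as higher in Type 2 (2.33% against 2.49% of all genes), and the median was 0.03. The gene was Rpl12 (0.40, adjusted p = 0.0469). Of 76 mitochondrial ribosomal protein genes 4 passed as higher in Type 2 (5.26% against 2.49%), with a median of 0.10. Of 5 tested RNA polymerase I subunits 0 passed. Among 8 subunits of the CCT chaperonin, which folds actin and tubulin, 4 passed as higher in Type 2 (50% against 2.49%) and all 8 had a positive difference (median 0.26); Cct8 read 11.47, 11.49, 11.36, 11.45 and 11.52 against 10.93 to 11.22 (median 11.10) in Type 3 (0.35, SE 0.06, adjusted p = 0.0115). Of 21 genes of the mitochondrial import complexes 5 passed as higher in Type 2 (23.8% against 2.49%), led by Timm8a1 (0.51, adjusted p = 0.0142) and Tomm20 (0.34, adjusted p = 0.0221). These families were also assembled after the values were seen, so their shares are no independent support.

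Myc, the transcription factor known for driving ribosome biogenesis, read 9.24, 9.42, 9.00, 8.87 and 8.85 in Type 2 and 7.92 to 8.80 (median 8.56) in Type 3. The groups touched without overlapping (0.62, SE 0.15, adjusted p = 0.0342), and the call was lost in 7 of 13 refits (without Type 2 line 1, 2 or 3 or Type 3 line 2, 3, 5 or 8; adjusted p up to 0.0958). Of 22 immediate early and growth response genes, 3 passed as higher in Type 2 (13.6% against 2.49% of all genes) and 0 as lower. The 3 were Myc, Srf and Ifrd1 (0.70, adjusted p = 0.0181), and the list median was 0.03. Because MYC binds the E-box CACGTG, the windows of Tsr1 (chr11:74897830-74898129, + strand) and Pes1 (chr11:3963725-3964024, + strand), 2 called assembly factors, are shown with that palindrome in capitals (RefSeq, GRCm38.p6, same window).
Tsr1: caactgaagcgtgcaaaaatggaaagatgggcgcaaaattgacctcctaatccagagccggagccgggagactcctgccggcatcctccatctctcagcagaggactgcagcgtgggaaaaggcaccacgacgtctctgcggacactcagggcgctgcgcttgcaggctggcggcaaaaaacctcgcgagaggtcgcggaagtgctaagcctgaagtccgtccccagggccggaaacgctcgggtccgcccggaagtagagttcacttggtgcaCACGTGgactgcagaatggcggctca
Pes1: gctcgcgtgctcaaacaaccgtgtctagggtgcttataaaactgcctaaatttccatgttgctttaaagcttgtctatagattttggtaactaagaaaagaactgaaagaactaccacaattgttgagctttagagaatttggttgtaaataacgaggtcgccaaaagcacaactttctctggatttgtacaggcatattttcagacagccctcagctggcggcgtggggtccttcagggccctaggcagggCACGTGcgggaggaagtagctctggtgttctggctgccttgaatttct
The window held CACGTG in 21 of 80 ribosome biogenesis promoters (26.2%) and in 5 of 44 cytosolic ribosomal protein promoters (11.4%). It did so in 9.78% of the 12356 promoters of tested genes, and in 7.15% of all 32851. The share was 11.8% in 304 promoters of genes called higher in Type 2 and 8.06% in 310 of genes called higher in Type 3. The family share covers all tested members, called or not, so it describes the family and not the contrast. Tsr1 differed by 0.42 (adjusted p = 0.0206) and Pes1 by 0.45 (adjusted p = 0.0259). The motif and the family were both chosen after the values were seen, and a match says nothing of binding in these lines.

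On the Type 3 side, Scara5 showed the widest difference of all 11944 genes. It encodes a scavenger receptor that takes up ferritin and marks adventitial and adipose stromal progenitors. In the Type 2 lines Scara5 read 4.64, 6.22, 4.33, 7.09 and 4.61, of which 3 were below the table median, and in Type 3 it ran from 7.91 through 9.49 to 11.55. The groups did not overlap. The means were 5.38 ± 1.21 (SD, n = 5) and 9.72 ± 1.42 (SD, n = 8), a 20.3-fold difference (-4.35, SE 0.69, adjusted p = 0.00981), which passed in all 13 refits and with all 23 lines (adjusted p = 0.0433).

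Iron handling genes went both ways. Of 15 tested, 1 passed as higher in Type 2 (6.67% against 2.49% of all genes) and 2 as higher in Type 3 (13.3% against 2.45%). The median was -0.24. Tfrc, the transferrin receptor, read 10.23, 9.67, 9.65, 9.54 and 10.29 in Type 2 and 8.21 to 9.13 (median 8.77) in Type 3, with no overlap (1.16, SE 0.17, 2.24-fold, adjusted p = 0.00759). Fth1, the ferritin heavy chain that stores iron, read 13.43, 13.48, 13.48, 13.45 and 13.57 against 13.67 to 14.03 (median 13.77), lower in every Type 2 line by a small amount (-0.32, SE 0.07, adjusted p = 0.0241). So the 2 receptors that bring iron in by different carriers were opposite, with ferritin on the Type 3 side. With all 23 lines in the fit 1 of the 15 passed, as higher in Type 3. Fth1 lost its call without Type 2 line 1, 3 or 4 (adjusted p up to 0.0674), and Tfrc passed in all 13 refits.

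Of 25 tested ligands, receptors and modulators of the Wnt pathway, 5 passed as higher in Type 3 (20% against 2.45%) and 0 as higher in Type 2, 21 had a negative difference, and the median was -0.45. Among ligands, Wnt16 read 4.99, 4.87, 5.44, 6.28 and 5.49 in Type 2 and 6.95 to 8.79 (median 7.61) in Type 3. There was no overlap (-2.39, SE 0.31, 5.23-fold, adjusted p = 0.0069). Wnt4 had a difference of -1.41 (adjusted p = 0.12). Rspo3, a secreted amplifier of Wnt signals, read 6.61, 7.66, 9.08, 7.90 and 7.58 against 9.08 to 9.62 (median 9.47), and Type 2 line 3 reached the bottom of the Type 3 range (-1.66, SE 0.29, adjusted p = 0.0121).

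Among receptors, Ror2, a co-receptor for non-canonical ligands, read 6.08, 5.05, 5.56, 6.11 and 7.06 in Type 2 and 6.98 to 8.04 (median 7.52) in Type 3, with overlap only at the PGF line of Type 2 (-1.48, SE 0.29, adjusted p = 0.0178). Of 2 tested Ror2 probe sets 1 passed, and the other differed by -0.30. Fzd1, a frizzled receptor, differed by -0.89 (adjusted p = 0.0282), and the receptor Lgr4, which binds R-spondins, by -0.85 (adjusted p = 0.072). Dkk3, a secreted member of the Dickkopf family, read 7.43, 8.76, 7.38, 8.33 and 7.48 against 8.60 to 10.23 (median 9.24), with 1 Type 2 line inside the Type 3 range (-1.53, SE 0.32, adjusted p = 0.0206). So both a ligand with its amplifier and a Dickkopf-family protein were among the 5. The mean of the centred Wnt list was -0.63 to -0.16 in Type 2 and -0.01 to 0.47 in Type 3. Without Type 2 line 1, without line 3, with all 23 lines or with the clone-name number as a block, 3 of the 25 passed. The list median was -0.28 without Type 2 line 2 and -0.26 with the mean of probe sets, each with 5 calls.

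Secreted carriers of insulin-like growth factors were also among the widest differences on the Type 3 side. Of 16 IGF and insulin axis genes, 0 passed as higher in Type 2 and 2 as higher in Type 3 (12.5% against 2.45% of all genes). The median was -0.10. Igfbp4 read 9.80, 7.09, 6.63, 10.19 and 7.30 in Type 2, and from 9.07 to 13.27 (median 12.25) in Type 3. Type 2 lines 1 and 4 overlapped the Type 3 range (-3.51, SE 0.82, 11.4-fold, adjusted p = 0.0304). Igfbp3, which also stands in the YAP and TAZ list, read 6.47, 7.37, 5.46, 7.77 and 5.29 against 7.79 to 10.79 (median 9.02), just without overlap (-2.72, SE 0.53, 6.60-fold, adjusted p = 0.0178). The 6 tested Igfbp4 probe sets had differences from -4.09 to -1.29 and 3 of them passed. The call of Igfbp4 was lost without Type 2 line 2, 3 or 5 or Type 3 line 5 or 8 (adjusted p up to 0.0755), and Igfbp3 passed in all 13 refits. With all 23 lines in the fit 0 of the 16 passed. Grb10, an adaptor that restrains insulin and IGF receptors, had a difference of 2.39 that did not pass (adjusted p = 0.179): it read 10.54 in Type 2 line 5 and 3.93 to 7.35 in the other Type 2 lines.

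Of 20 collagens, 2 passed in each direction (10% against 2.49% and 2.45%), with a median of -0.12. Those higher in Type 2 were Col4a1 (1.29, adjusted p = 0.0301) and Col4a2 (1.30, adjusted p = 0.0229), the paired chains of basement membrane collagen. In Col4a1 the Type 2 lines read 11.61, 10.34, 11.27, 11.59 and 11.52 and Type 3 ran from 9.13 to 10.84 (median 9.98), with Type 2 line 2 inside that range. Those higher in Type 3 were Col3a1, a fibrillar collagen of loose connective tissue (-1.20, adjusted p = 0.0346), and Col14a1, which binds fibril surfaces (-1.58, adjusted p = 0.0235; no overlap). Without Type 2 line 1, or without Type 2 line 3, each of these 4 calls was lost (adjusted p up to 0.0987, for Col3a1 without Type 2 line 1).

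Of 38 matrix glycoprotein and remodelling genes, 1 passed as higher in Type 2 (2.63% against 2.49% of all genes). On the Type 3 side 4 passed (10.5% against 2.45%), and the median was -0.23. Sned1, an extracellular matrix glycoprotein, read 8.15, 9.31, 7.60, 9.43 and 8.98 in Type 2 and 9.99 to 11.58 (median 11.23) in Type 3, with no overlap (-2.37, SE 0.33, 5.18-fold, adjusted p = 0.00696). Mmp2, the gelatinase that cuts basement membrane collagen, read 9.05, 8.25, 7.41, 8.99 and 8.24 against 9.60 to 11.73 (median 9.93), also without overlap (-1.78, SE 0.35, adjusted p = 0.0178). Sparcl1 differed by -2.49 (adjusted p = 0.0413) and Fbln1, an elastic-fibre protein, by -0.94 (adjusted p = 0.0422), each lost in most refits. The 1 gene counted as higher in Type 2, Mamdc2, read 5.52, 6.56, 5.19, 4.81 and 5.76 in Type 2 and 3.59 to 4.94 (median 4.16) in Type 3. It was below the table median in all 8 Type 3 lines and passed the filter only through 4 Type 2 lines, so it had to differ and its count is no support.

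Of 21 tested glutathione and xenobiotic genes, 5 passed as higher in Type 3 (23.8% against 2.45%) and 1, the thioredoxin reductase Txnrd1 (0.74, adjusted p = 0.0415), as higher in Type 2, with a median of -0.29. Gstt1, a theta-class glutathione transferase, read 6.12, 7.51, 7.44, 7.32 and 7.64 in Type 2 and 8.30 to 9.95 (median 9.15) in Type 3. The groups were apart (-2.01, SE 0.29, 4.03-fold, adjusted p = 0.00759). The 5 calls became 3 without Type 2 line 1, 2 or 3, and 2 with all 23 lines or with the clone-name number as a block. Txnrd1 passed in 4 of the 13 refits: its call was lost without Type 2 line 1, 2, 3 or 5 or Type 3 line 1, 2, 5, 6 or 8 (adjusted p up to 0.103), and also with all 23 lines (adjusted p = 0.129), the block, no filter or the mean of probe sets. Gstt3 (-0.57, adjusted p = 0.0253) and Gstm2 (-0.45, adjusted p = 0.0213) went the same way by less. Gda and Xdh are purine-degrading enzymes; Gda, guanine deaminase, read 8.87, 8.90, 7.66, 9.13 and 9.13 against 9.96 to 11.47 (median 10.82), without overlap (-2.08, SE 0.30, adjusted p = 0.00759), and Xdh, xanthine dehydrogenase, differed by -0.49 (adjusted p = 0.0279). Mtarc2, a mitochondrial molybdenum enzyme in none of the lists, had the smallest p of all genes with a modest difference: 10.32, 10.40, 10.20, 10.44 and 10.22 against 10.81 to 11.14 (median 11.00) (-0.67, SE 0.08, adjusted p = 0.00628).

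Other genes with wide or steady differences on the Type 3 side had varied roles. Tshz2, a zinc finger homeobox factor, read 4.41, 4.80, 5.42, 6.01 and 5.06 in Type 2 and 6.27 to 9.51 (median 8.29) in Type 3 (-3.01, SE 0.52, 8.04-fold, adjusted p = 0.0123). Vegfd, a lymphangiogenic growth factor, read 11.28, 10.62, 11.21, 11.35 and 11.43 against 11.94 to 12.52 (median 12.23) (-1.04, SE 0.13, adjusted p = 0.00628). Neither overlapped. The neighbouring family members Tmem176a and Tmem176b differed by -2.33 (adjusted p = 0.0206) and -2.41 (adjusted p = 0.0123), Ptpn13, a tyrosine phosphatase, by -0.99 (adjusted p = 0.0069), Ttc39c by -1.16 (adjusted p = 0.00696) and Fam13c by -2.30 (adjusted p = 0.0181). Cxcl12, the chemokine that holds CXCR4-bearing cells, read 7.79, 9.17, 7.76, 5.51 and 7.95 in Type 2 and 8.52 to 11.64 (median 9.98) in Type 3, overlapping at Type 2 line 2 (-2.30, SE 0.56, adjusted p = 0.0344). Of the 12 widest on this side, 7 had no overlap and 7 passed in all 13 refits. The calls of Cxcl12 and Sparcl1 were the least steady, lost in 7 and 8 refits (each without Type 2 line 1, 3, 4 or 5 among others; adjusted p up to 0.0814 and 0.111).

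A set of nutrient and stress regulators that restrain growth was assembled after the values were seen. Of 9 tested, 6 passed as higher in Type 3 (66.7% against 2.45%) and 0 as higher in Type 2, with a median of -0.66. As the members were picked after these values were seen, that share is no support. Of the 9, 1 had a positive difference (0.72). With array weights 1 of the 9 passed as higher in Type 2 and 6 as higher in Type 3. Sesn3, a sestrin that holds back mTORC1, read 7.15, 7.87, 7.28, 7.75 and 8.21 in Type 2 and 8.40 to 9.84 (median 8.62) in Type 3 (-1.22, SE 0.26, adjusted p = 0.0228). Sesn1 and Sesn2 differed by -0.75 (adjusted p = 0.0415) and -0.37 (adjusted p = 0.0484), the translation inhibitor Pdcd4 by -0.74 (adjusted p = 0.029), Pik3ip1, which binds PI3-kinase, by -0.66 (adjusted p = 0.0342), and Klf15, a glucocorticoid-induced factor, by -1.01 (adjusted p = 0.030). Without Type 2 line 1, without line 3, or with all 23 lines in the fit, 0 of the 9 passed; with the clone-name number as a block there were 2, without Type 2 line 2 there were 2, without Type 3 line 3 there were 3, without Type 3 line 5 there were 2 and without Type 3 line 8 there was 1.

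Of 22 intraflagellar transport genes, which build the primary cilium and were also grouped after the values were seen, 5 passed as higher in Type 3 (22.7% against 2.45%) and 0 as higher in Type 2, with a median of -0.26. Ift140, a subunit of the retrograde complex, read 6.67, 6.80, 6.33, 6.77 and 6.87 in Type 2 and 7.02 to 7.40 (median 7.11) in Type 3 (-0.46, SE 0.10, adjusted p = 0.0206). The other 4 were Ift80, Ift122, Ift81 and Wdr19. The mean of the centred family was -0.22 to -0.06 in Type 2 and -0.04 to 0.27 in Type 3, and 0 of the 22 passed without Type 2 line 1 or with all 23 lines in the fit, 2 with depot as a covariate, 3 with no filter or the mean of probe sets, 1 without Type 2 line 2, 3 or 4 or Type 3 line 8, 2 without Type 3 line 5 or 6, and 3 without Type 2 line 5 or Type 3 line 3. Among 15 clock genes 2 passed as higher in Type 3 (13.3% against 2.45%) and 0 as higher in Type 2, with a median of -0.06. Of the 15, 6 had a positive difference. The clock and transport families were both picked after the values were seen, so their shares are no independent support. Dbp, a circadian output factor, read 7.29, 7.43, 7.33, 7.04 and 7.75 against 7.95 to 8.69 (median 8.32), with no overlap (-0.93, SE 0.15, adjusted p = 0.00918). Per3 differed by -0.67 (adjusted p = 0.0229).

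**Figure D4:**
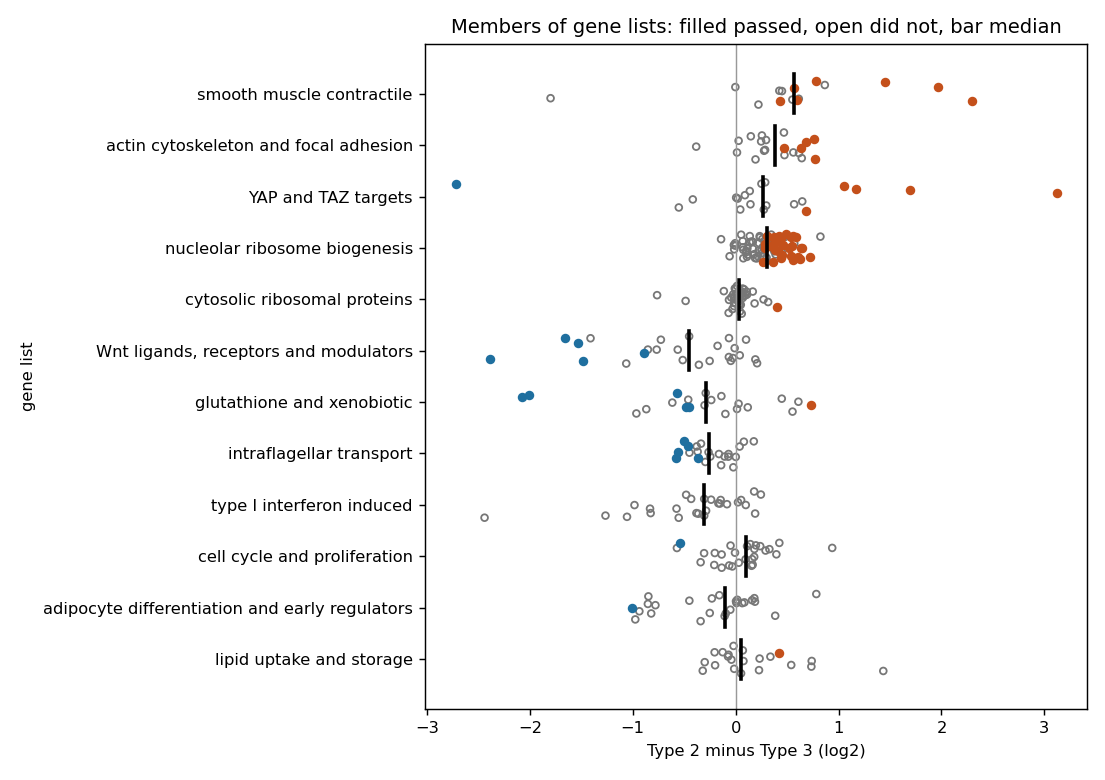
Each circle is 1 tested gene at its Type 2 minus Type 3 difference (log2), by gene list; filled orange passed as higher in Type 2, filled blue passed as higher in Type 3, open circles did not pass, and the bar is the list median. Among the lists shown, medians run from 0.57 for smooth muscle contractile genes to -0.45 for the Wnt list, and cytosolic ribosomal proteins cluster near 0.

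Interferon genes did not pass. Of 26 tested type I interferon induced genes 0 passed in either direction, although 20 had a negative difference and the median was -0.31. That median was -0.15 without Type 2 line 5 (the PGF line), -0.09 in SCF lines alone and -0.03 in clone-name number 3 alone. Without Type 3 line 4 it was -0.43. Mx1, an antiviral GTPase that the study uses as its Type 3 marker, was chosen on these lines. It read 4.43, 6.54, 4.57, 5.88 and 3.98 in Type 2 and 4.56 to 9.31 (median 7.71) in Type 3, a difference of -2.44 (SE 0.67, adjusted p = 0.0557). Type 3 line 4 gave the lowest Type 3 value, and without it 3 of the 26 genes passed, Mx1 and Ifit1 among them. The mean of the centred list ran from -1.01 to 0.27 in Type 2 and from -1.06 to 0.68 in Type 3. The 5 highest lines were all Type 3, and the 2 lowest were 1 of each type. Of 29 interferon-gamma induced and antigen presentation genes 0 passed (median 0.16); H2-K1, a class I molecule, read 13.06, 13.43, 13.32, 13.28 and 13.25 against 13.11 to 13.66 (median 13.55) (-0.23, adjusted p = 0.139).

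Of 25 differentiation regulators of adipocytes 1 passed, Klf15 (4% against 4.94% of all genes in either direction), and of 21 lipid genes 1 (4.76%), shares near the background. Pparg, the master regulator of fat cell formation, read 9.02, 8.51, 9.20, 8.62 and 8.49 in Type 2 and 7.09 to 8.93 (median 7.94) in Type 3 (0.78, SE 0.23, adjusted p = 0.0695). The precursor factors Zfp423 and Zfp521 had differences of -0.94 (adjusted p = 0.0802) and -0.98 (adjusted p = 0.0543). The lipid gene was Ldah, a lipid droplet hydrolase (0.42, adjusted p = 0.0142; no overlap); Fabp4 had a wider difference of 1.43 with far more spread (adjusted p = 0.189). Of 7 tested thermogenic genes 0 passed. The submitters' differentiation score, from 1 to 4, was 2.80 ± 1.10 (SD, n = 5) in Type 2 and 3.00 ± 0.76 (SD, n = 8) in Type 3, a difference of -0.2 (two-sided exact permutation p = 0.751 over 1287 assignments, adjusted over both scores 0.803). The media acidification score was 3.00 ± 1.41 (SD, n = 5) and 2.75 ± 0.89 (SD, n = 8) (difference 0.25, exact permutation p = 0.803, adjusted 0.803). Of 28 cell cycle genes 1 passed, as higher in Type 3 (3.57% against 2.45% of all genes), and the median was 0.10. The gene was Cdkn2a, the locus of the p16 and p19ARF inhibitors (-0.55, adjusted p = 0.0341). Its call held in 7 of 13 refits (adjusted p up to 0.0876) and was lost with depot as a covariate (adjusted p = 0.0555).

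The shares called in the next lists stand against 2.49% (higher in Type 2) and 2.45% (higher in Type 3) of all genes. They were 3.45% each way for the BMP and TGF-beta list and the ER list, and 4% each way for the angiogenic list. The patterning list gave 0% and 3.85%, so these lists were near the background. The inflammatory list gave 9.09% each way. The junction list gave 20% and 0%, the complement family (assembled after the values were seen) 0% and 14.3%, and the protocadherin list 0% and 20%. In BMP and TGF-beta signalling (29 tested) the 2 called genes were Inhba and Tgfbr3, the betaglycan co-receptor. Tgfbr3 read 11.62, 12.42, 12.17, 12.36 and 12.06 in Type 2 and 12.75 to 13.31 (median 13.01) in Type 3 (-0.87, SE 0.13, adjusted p = 0.00759). Among 22 inflammatory genes Tnfrsf12a, the TWEAK receptor (1.02, adjusted p = 0.00791), and Irak2, a kinase of interleukin-1 signalling (1.10, adjusted p = 0.0142), were higher in Type 2, and Cxcl12 and the receptor Il1r1 (-0.75, adjusted p = 0.0495) higher in Type 3. The ER list (29 tested) gave Fkbp11 (0.64, adjusted p = 0.0115) and Sel1l (-0.30, adjusted p = 0.047), the patterning list (26) Tbx18 (-0.77, adjusted p = 0.0179), the angiogenic list (25) Pdgfc and Vegfd, the junction list (10) Pkp2 and Ctnna1 (0.32, adjusted p = 0.0453), and the complement family (7) C1ra (-1.40, adjusted p = 0.0119). On the protocadherin list (10) Pcdhb22 (3.06 to 4.10 in Type 2, 4.76 to 6.15 in Type 3) and Pcdhb21 (4.28 to 4.38 and 4.32 to 5.42) were counted. Both were below the table median in all 5 Type 2 lines and passed the filter only through 3 Type 3 lines, so they had to differ. Another probe set of Fkbp11 had the opposite sign. Ctnna1, Sel1l and Il1r1 each passed in 2 of 13 refits and in no probe set when all were tested together.

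Of the 44 tested entries on the lists of cell type markers, 4 (9.09%) passed, against 4.94% of all genes. Of 12 tested preadipocyte and stromal markers, Itgb1 was higher in Type 2 and Col3a1 higher in Type 3, and Cd34 had a difference of -2.23 that did not pass (adjusted p = 0.189). Tek, an angiopoietin receptor on the endothelial list, was higher in Type 3 (-1.99, adjusted p = 0.0415) with the highest value, 9.48, in Type 3 line 4. It passed in 3 of 13 refits. Tbx18, on the mesothelial list (5 tested), was also higher in Type 3 (-0.77, adjusted p = 0.0179). It was the only 1 of the 5 with a negative difference. The other 4 had positive differences, up to 1.46, of which 0 passed, and the list median was 0.05. Among them Krt19 was at least 7.19 in every Type 2 line, whereas its Type 3 values lay between 4.96 and 7.44. Of the macrophage and leukocyte list 0 of 6 tested genes passed. Csf1r, the receptor for the macrophage growth factor, read 11.30, 8.93, 10.49, 10.29 and 10.58 in Type 2 and 6.51 to 10.08 (median 9.13) in Type 3 (1.49, adjusted p = 0.102). The log2 of the summed list was 10.9 to 11.9 in Type 2 and 9.36 to 10.9 in Type 3, with Ptprc at 2.86 to 3.33 in all 13 lines. Wt1, the mesothelial factor that the study uses for Type 1, was too low to be tested, at 3.04 to 3.71 in Type 2 and 3.01 to 5.24 in Type 3. Epithelial, pericyte, skeletal muscle and mature adipocyte markers gave 0 calls.

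The direction of the contrast could also be read by depot. Of the 590 called genes, all 590 had the same sign in the SCF lines alone (4 against 4), where 87.4% of all tested genes did, and 589 in the PGF lines (1 against 4), where 72.9% did. As the called genes were chosen on the same lines, that is a description. The exception was Atrnl1, at -0.94 in SCF lines and 0.17 in PGF lines. Genes chosen on the SCF lines alone were then read in the PGF lines, which that fit does not use. The type labels themselves came from clustering all these lines, so shared signs were in part set by the label. This reading is therefore a description too. The SCF fit by itself called 0 genes at the adjusted threshold in limma (2047, or 17.1%, had an unadjusted p below 0.05). Of these 2047, 1670 (81.6%) had the same sign in the PGF lines, against 62.8% of all genes, and of the 218 that also differed by at least 1 log2 unit, 189 (86.7%) did. The PGF side holds a single Type 2 line, so that line's own traits cannot be told apart from type there.

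Among named genes, Scara5 differed by -3.96 in SCF and -5.31 in PGF lines, Wnt16 by -2.28 and -2.43, Pkp2 by 2.35 and 2.65, and Tagln by 2.17 and 2.28. Some were less even: Ccn2 differed by 3.61 and 1.48, Ror2 by -1.92 and -0.22, Igfbp3 by -1.88 and -4.45, and Srf by 0.73 and 0.11. A term for type by depot passed in 0 of 11944 genes (598 at an unadjusted p below 0.05, smallest adjusted p = 0.863, and 0 of 18193 with no filter on low values, where the smallest was 0.0693), so the gaps between depots did not pass. With depot as a covariate 520 genes passed, 422 of them among the 590; Ccn2 did not (adjusted p = 0.0593).

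**Figure D5:**
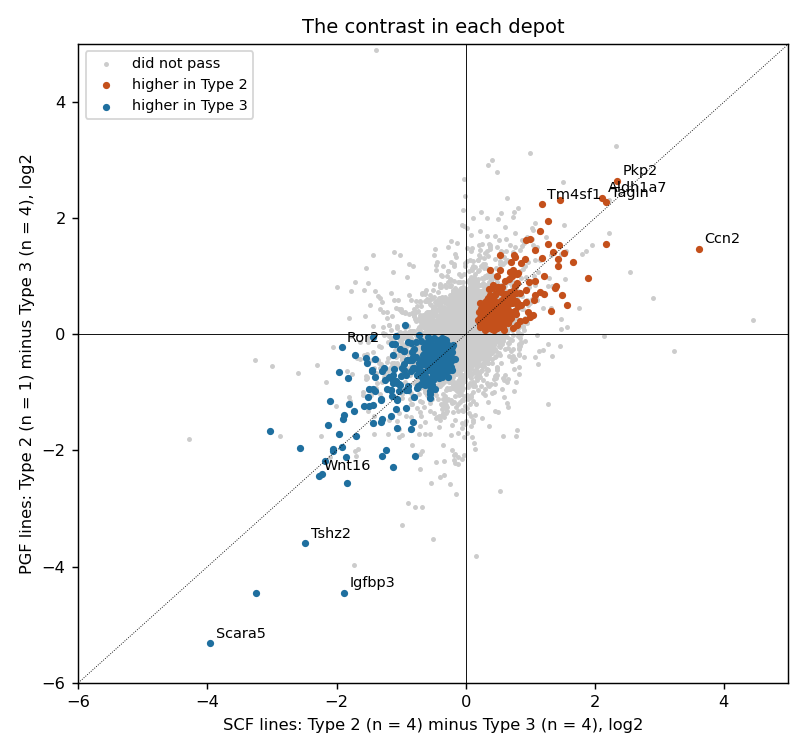
Each point is a gene, with its Type 2 minus Type 3 difference (log2) in SCF lines (4 against 4) across and in PGF lines (1 against 4) upwards; coloured points passed in the fit of all 13 lines, and the dotted line marks equal differences. Coloured points lie in the 2 quadrants of equal sign save Atrnl1, and Igfbp3 and Ccn2 lie far from the dotted line.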

How the data were processed

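Expression was measured on 23 mouse arrays, 1 per clonal line, from 250 ng of total RNA each, per the labels. The deposited table holds log2 values (2.03 to 14.46), a scale inferred from their range; the software was MAS5, per the submitters' processing notes, which give no version, and the sources used here give no scaling step. Depth has no counterpart on arrays: the number of lines limits precision. The sources used here do not say whether the RNA was taken before differentiation.

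Of 45101 probe sets, 34945 had 1 gene symbol in the platform annotation (932 had several and 9224, the 64 controls included, had none); 34741 matched the RefSeq table of GRCm38.p6 by Entrez ID. Each of 18193 genes took its brightest probe set by the mean of the 23 lines. The test kept 11944 genes that exceeded the median of the table (5.13) in 3 or more of the 13 lines. In 2 of 39 named genes with several probe sets, some had the other sign: 1 of 2 for Fkbp11 and 2 of 3 for Cldn3. Of 35 called genes with several, 21 passed in all. The median was used in place of detection calls.

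Groups came from the labels; numbers of lines follow deposition order and only name a line. Limma 3.58.1 (lmFit, eBayes) in R 4.3.3 compared the 5 and 8 lines, with Benjamini-Hochberg adjustment and a threshold of 0.05. Scores were compared by exact permutation in scipy 1.17.1, and tables were handled with pandas 2.3.3. On simulated data of the same size, genes were drawn independently and 100 were changed at each fold. Of those changed 2-fold 90% were recovered and of those changed 4-fold 99%, with 17 false calls among the unchanged of 11944 genes. Variation shared between genes was not simulated, so this does not measure how reliable the calls on the real lines are. No pair of the 13 arrays held identical values. Alternatives were other filters, scalings, probe rules, fits and lines left out. An offset foreseen for linear values was used only as an alternative.

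Genes named are the 12 widest differences in each direction among those that passed (predicted names left out), the 5 smallest p in each direction, Tagln, Mx1 and Wt1, and up to 4 members that passed of each list, or the 2 with the smallest p; other genes are examples from the lists, chosen after their values were seen, as were the families of ribosome assembly, ribosomal proteins, RNA polymerase I, CCT, mitochondrial import, cilium transport, growth restraint, clock and complement genes. The lines compared, the gene lists and the named-gene rule were chosen with earlier results of these data known. Of 85 genes named by the rule and tested, 63 are in the RefSeq promoter table.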

Additional observations from a re-analysis of the deposited data

Results flagged for a closer look

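In groups of 5 and 8 lines, the highest or lowest value was set against its nearest neighbour for every tested gene named by the rule. In 24 of 170 groups 1 line stood apart by Dixon's criterion, where chance gives about 1 in 20; no explanation was tested.

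Among Type 2 lines, line 1 was high in Pkia (9.12) and Tpm1 (11.90) and low in Gstt1 (6.12). Line 2 was low in Vegfd (10.62) and in both basement membrane chains, Col4a1 (10.34) and Col4a2 (9.50). Line 3 was low in Gda (7.66) and Il1r1 (8.93). Line 4 was high in Ptpn13 (8.20) and Col14a1 (5.18). The PGF line, line 5, was low in Ccn2 (9.82) and high in Tm4sf1 (12.58).

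Among Type 3 lines, line 4 stood apart in 7 genes. It was low in H2-K1 (13.11), Irf8 (4.64), Csf1r (6.51) and Mylpf (5.08), and high in Mmp2 (11.73), Gstm2 (10.28) and Tek (9.48). Line 5 was low in Itgb1 (9.89) and high in Tmem26 (8.26), a beige adipocyte marker. Line 1 was high in Pcdhb22 (6.15), line 2 in Cox7a1 (5.28), and line 7 was low in Gstt3 (6.84).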

How the results depend on the processing

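The 590 calls became 53 with all 23 lines in the fit, 298 with the clone-name number as a block and 1081 with array weights. They became 0 in the SCF lines alone (2047 at an unadjusted p below 0.05) and 0 in lines of clone-name number 3 alone (1654). Leaving out 1 line gave 152 to 741 calls and 433 to 675 genes without overlap, and score differences of -0.5 to 0 (differentiation) and 0 to 0.75 (acidification). Other filters, scalings, probe rules and fits with 1 value per gene gave 453 to 601. Testing every probe set gave 818 calls of 20863. The share of calls higher in Type 2 was 50.3%, and 46.7% to 53.4% across settings that kept all lines and made calls. Over 85 named genes and all settings, 1873 values kept direction and side of the threshold, 398 lost the call, 15 gained it and 3 turned sign, none of them called: Cldn3 with the mean of probe sets (0.0164), and Elf3 in SCF lines (0.0511) and in number 3 alone (0.0238). Of the list medians, 24 of 1134 moved by more than their spread. The causes were not tested. No paired analysis was possible because the labels give no replicate numbers. The number in the clone name is of unstated meaning and shared by several lines of a type. It was used only as a block (298 calls, above) and to restrict the lines (number 3 alone, 0 calls). As it was spread unevenly over the types, its part cannot be fully told apart from type.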

Other observations

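The 10 lines left out of the comparison can be placed on it. For each called gene, a line was counted as nearer the Type 2 mean or the Type 3 mean. The Type 2 lines, which made the means, were nearer Type 2 in 89.5% to 97.8% of the 590 genes and the Type 3 lines in 1.69% to 16.8%. The 3 Type 1 lines, all PGF, were nearer Type 2 in 56.9%, 79.2% and 72.9%. The 7 lines labelled Other had no common place: lines 1 to 7 were nearer Type 2 in 36.1%, 7.8%, 46.4%, 4.92%, 63.1%, 28% and 85.9%. Other line 4 and Other line 2 lay within the Type 3 range and no Other line lay within the Type 2 range. These are values without a test, added after the data were seen.

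Clonal immortalised lines can differ in chromosome content. The median difference over the tested genes of each chromosome lay between -0.07 and 0.04, against -0.01 over all genes. Single lines spread more widely. Their median deviation per chromosome ran from -0.18 (chromosome 19, Type 3 line 4) to 0.16 (chromosome 18, Type 3 line 7). Chromosome content itself was not tested.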
